A study of Mus musculus with 2 samples.

Results

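The Rhox genes are reproductive homeobox genes that lie in a cluster on the mouse X chromosome. Rhox5, Rhox2h, Rhox6 and Rhox9 were followed here, chosen by symbol because Rhox5 and Rhox2h had been seen high in resistant cells, and they are 4 of the 55468 gene rows of the table. RNA was sequenced from gemcitabine-resistant KPC2 cells, kept long-term in 260 ng/mL gemcitabine, and from untreated wild type KPC2 cells, with 1 library for each. KPC2 is a mouse pancreatic cancer cell line, labelled as pancreas, and both groups grew in the same serum-containing medium. Gemcitabine is a deoxycytidine analog that blocks DNA synthesis. The labels do not say whether the resistant cells are a clone or a pool. An effect of gemcitabine on the cells at harvest and a lasting change in them cannot be told apart.

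RHOX proteins carry a homeodomain, a DNA-binding fold, and act as transcription factors. In mice the family is known for its expression in testis, epididymis, ovary, placenta and embryonic stem cells, and most members are silent in other tissues, where DNA methylation of their promoters is a known means of silencing. Rhox5, first named Pem, is the founding member. It is known from Sertoli cells of the testis, where its proximal promoter is used, and its distal promoter is used in placenta, ovary and tumour cell lines. Rhox6 and Rhox9, also known as Psx1 and Psx2, are known from placenta and germ cells. Rhox2h is 1 of 8 closely similar Rhox2 copies.

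Values were read as FPKM, fragment counts scaled to transcript length and library depth, so levels can be set beside each other between genes. A difference is given as log2((resistant FPKM + 1)/(wild type FPKM + 1)), where 1 stands for a 2-fold higher value on that scale. Low values fell on whole multiples of 1 fragment, which on 1 kb of transcript was worth 0.0432 FPKM in the resistant and 0.0419 FPKM in the wild type library, so the libraries were of similar depth. Intervals beside the values are exact 95% Poisson intervals on these fragments and cover counting error only. There is no replicate, so no test could be made.

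The sequences just before the start of Rhox5 and of Rhox2h are shown because both genes were high in resistant cells while nearby family members were not. These are the 250 bases upstream of the RefSeq start on GRCm38.p6, Rhox5 at chrX:37754358-37754607 on the plus strand and Rhox2h at chrX:37673278-37673527 on the minus strand. Capitals mark the core motif of Ets factors, CCGGAA, read on either strand.
Rhox5: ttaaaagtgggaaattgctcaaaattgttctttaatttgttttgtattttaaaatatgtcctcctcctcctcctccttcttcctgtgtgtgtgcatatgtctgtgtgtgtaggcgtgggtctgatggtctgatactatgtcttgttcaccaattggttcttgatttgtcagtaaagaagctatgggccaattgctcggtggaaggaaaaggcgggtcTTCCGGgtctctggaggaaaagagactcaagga
Rhox2h: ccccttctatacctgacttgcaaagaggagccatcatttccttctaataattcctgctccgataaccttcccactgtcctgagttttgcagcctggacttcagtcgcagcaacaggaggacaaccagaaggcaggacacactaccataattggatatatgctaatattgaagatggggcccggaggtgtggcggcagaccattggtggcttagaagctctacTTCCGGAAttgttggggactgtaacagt
In the Rhox5 sequence the motif lies on the opposite strand, at positions -33 to -28 before the start. In the Rhox2h sequence 2 matches on opposite strands overlap, at positions -28 to -23 and -26 to -21. The RefSeq start of Rhox5 lies 50.2 kb before the start of the GENCODE gene that the table's row names, and the values per gene do not say from which start the transcripts began.

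The Rhox2 copies share this stretch, and it is shown for 4 of them to let their differences be seen. Capitals mark bases that differ from Rhox2h over 58 aligned bases.
Rhox2h: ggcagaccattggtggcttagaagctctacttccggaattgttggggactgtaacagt
Rhox2a: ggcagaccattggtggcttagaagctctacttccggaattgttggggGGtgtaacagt
Rhox2d: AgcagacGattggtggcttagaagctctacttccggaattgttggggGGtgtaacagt
Rhox2g: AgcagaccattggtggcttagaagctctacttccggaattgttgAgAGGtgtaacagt
Counted from 1 at the 5′ end of the stretch, A48G and C49G (the Rhox2h base first) were found in all 6 other copies with a promoter sequence in the RefSeq table, which lists none for Rhox2f. The number of differences from Rhox2h ran from 2 in Rhox2a, Rhox2b and Rhox2e to 5 in Rhox2g. None of these differences touches the motif.

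Rhox5 was abundant in resistant cells and close to absent in wild type cells. The gene (ENSMUSG00000095180) lies at chrX:37804842-37808876 on the plus strand of GRCm38. Rhox5 stood at 319.5 FPKM (310.1 to 329.1, about 4396 fragments) in resistant cells, against 0.423 FPKM (0.155 to 0.922, 6 fragments) in wild type cells. That is a log2 ratio of 7.81 (7.34 to 8.16 at the ends of both counting intervals), or a 754-fold linear ratio with an exact interval of 346-fold to 2057-fold, whose width comes from the 6 wild type fragments. Measured genes are those that reach 1 FPKM in either library. Among the 10557 measured protein-coding genes, Rhox5 ranked 225 by its level in resistant cells and 1 by its log2 ratio. The authors' deposited table gives Rhox5 a log2 fold change of 9.56 with a p-value of 0.0903 and a q-value of 0.998, so their test did not call it.

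Rhox2h was present at a moderate level in resistant cells and not detected in wild type cells. The gene (ENSMUSG00000079627) lies at chrX:37668989-37673277 on the minus strand of GRCm38. Rhox2h stood at 10.7 FPKM (9.05 to 12.5, 153 fragments) in resistant cells and was listed at 0 in wild type cells, where 3 fragments would have been 0.203 FPKM. Its log2 ratio with the added 1 was 3.54, and no fold is given against a value of 0. The authors' deposited table called Rhox2h, with a p-value of 5e-05 and a q-value of 0.0169, among 56 genes called in all. In resistant cells the FPKM of Rhox5 was 29.9 times that of Rhox2h, which ranked 5520 by level among the same 10557 genes.

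Rhox6 and Rhox9 were listed at 0 FPKM in both libraries. This goes against the description of these 4 genes as switched on, which held for Rhox5 and Rhox2h, the members on which it was based. For Rhox6 (ENSMUSG00000006200, chrX:37826910-37829857, plus strand), 3 fragments would have been 0.152 FPKM in resistant and 0.148 FPKM in wild type cells. For Rhox9 (ENSMUSG00000068048, chrX:37899097-37901770, minus strand), they would have been 0.0573 FPKM in resistant and 0.0556 FPKM in wild type cells. Rhox6 begins 18.03 kb after the end of Rhox5, so the nearest of the silent members was next to the most abundant one.

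**Figure D1:**
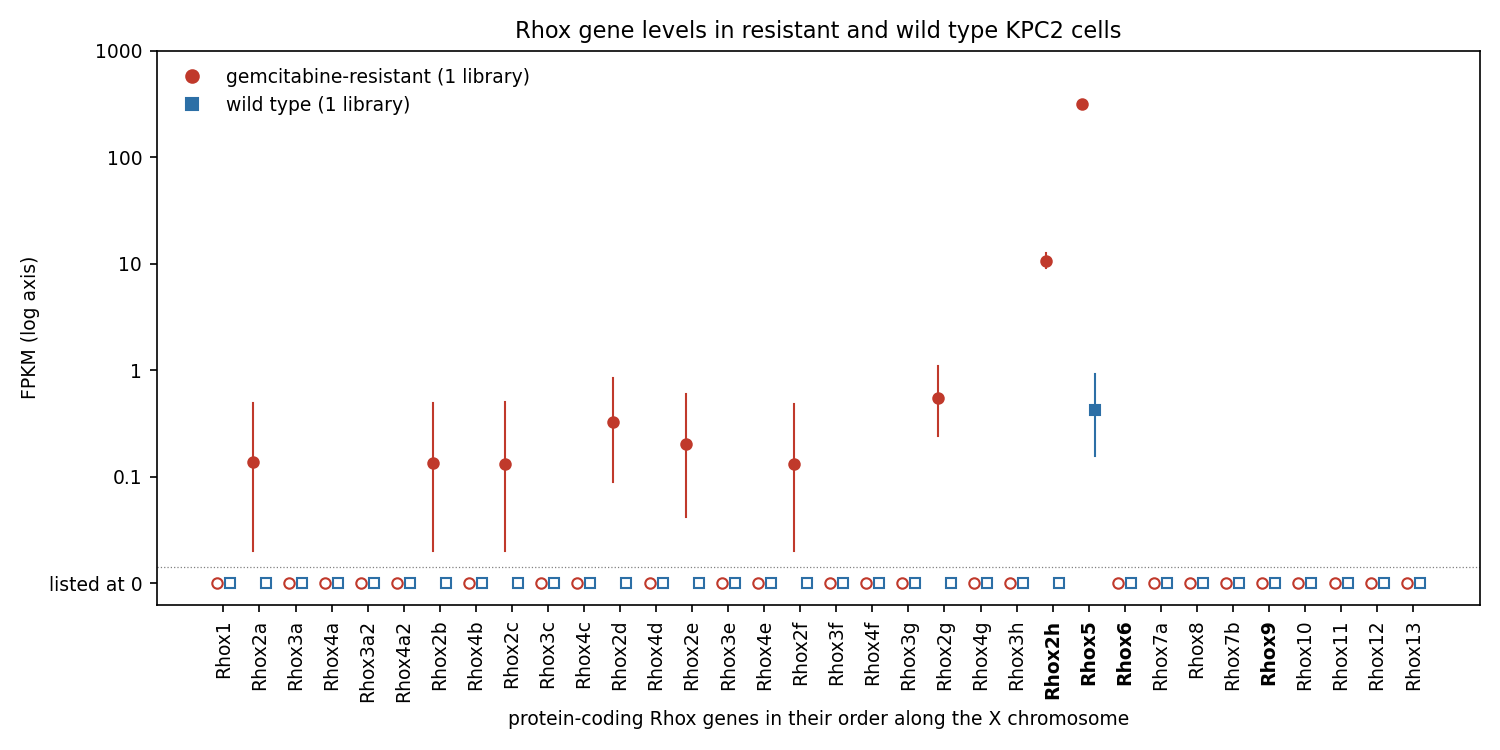
FPKM of the 34 protein-coding Rhox genes in order along the X chromosome, on a log axis, with resistant cells as red circles, wild type cells as blue squares, bars for 95% Poisson intervals (cut off at the lower edge) and open symbols for values listed at 0; the 4 genes followed here are in bold. Rhox5 at 319.5 FPKM and Rhox2h at 10.7 FPKM in resistant cells stand above the other Rhox2 copies, at 0.553 FPKM or less, and 1 gene, Rhox5, was above 0 in wild type cells.

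The whole family showed which relatives moved with the members. The table holds 42 Rhox rows, of which 34 are protein-coding and 8 are pseudogenes. In resistant cells 9 rows were above 0, namely Rhox5 and all 8 Rhox2 copies, against 1 row, Rhox5, in wild type cells. All 33 other rows, among them 9 Rhox3 rows, 8 Rhox4 rows, Rhox1, Rhox8 and Rhox10 to Rhox13, were listed at 0 in both. Of the whole family, Rhox5 and Rhox2h reached 1 FPKM, and both were at least 2-fold higher, against 7.9% of all 12193 measured genes. The members were chosen on this contrast, so nothing is read from that count.

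The other 7 Rhox2 copies were low in resistant cells and listed at 0 in wild type cells. Rhox2g, which lies 25.5 kb before Rhox2h, had 0.553 FPKM (0.241 to 1.08, about 8 fragments) in resistant cells. Rhox2d had 0.329 FPKM and Rhox2e 0.203 FPKM in resistant cells, from about 4 and 3 fragments. Rhox2a, Rhox2b, Rhox2c and Rhox2f had between 0.132 and 0.136 FPKM there, each from about 2 fragments. The 8 copies summed to 12.3 FPKM in resistant cells and 0 in wild type cells, and Rhox2h held 153 of their 176 fragments, or 86.9% (81.0% to 91.5%, Clopper-Pearson 95% interval). For scale, 5.2% of 21873 protein-coding symbols were above 0 in resistant and listed at 0 in wild type cells, and 3.86% the other way round.

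Copies this alike can share reads, so how the authors' counting split them bears on these values. Over 573 coding bases in GENCODE M21, the other Rhox2 copies matched Rhox2h at 94.1% to 95.1% of bases. Of all 100-base windows of the longest Rhox2h transcript, 87.6% occurred in no other gene's transcripts, and at 50 bases 46.3% did. Rhox2b, Rhox2c and Rhox2f shared no 100-base window with Rhox2h, while for Rhox2a, Rhox2d, Rhox2e and Rhox2g between 2.59% and 5.32% of windows were also in Rhox2h. At 50 bases every copy shared windows with Rhox2h, between 2.27% in Rhox2b and 25.5% in Rhox2g. No 50-base window of the longest GENCODE transcript of Rhox5 occurred in another gene's transcripts. Only annotated transcripts, read in their own direction, were searched, not the rest of the genome. Neither the read length nor the treatment of multiple matches is stated, and the low Rhox2 values are uncertain for that reason.

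The 4 members themselves differ in how alike they are. Rhox6 and Rhox9 were 90.6% identical over 681 coding bases, whereas Rhox5 was 62.9% identical to Rhox2h, 58.9% to Rhox6 and 67.1% to Rhox9 over the aligned bases. Rhox5 had 609 aligned bases and 102 gap positions with Rhox6, and 566 aligned bases and 188 gap positions with Rhox9. These percentages leave out the gaps, so they do not rank Rhox6 and Rhox9 by likeness to Rhox5. All 34 protein-coding Rhox genes have an internal coding exon of 46 bases. It is shown for the 4 members as exon 3 of 4 because it lets their relation be read base by base, with capitals for the 19 bases that all 4 share.
Rhox5: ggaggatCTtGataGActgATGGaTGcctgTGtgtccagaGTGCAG
Rhox2h: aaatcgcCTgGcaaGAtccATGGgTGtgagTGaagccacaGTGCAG
Rhox6: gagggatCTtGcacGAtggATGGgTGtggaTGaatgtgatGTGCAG
Rhox9: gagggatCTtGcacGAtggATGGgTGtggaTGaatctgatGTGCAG
On GRCm38 these exons lie at chrX:37806074-37806119 for Rhox5, chrX:37671020-37671065 for Rhox2h, chrX:37828415-37828460 for Rhox6 and chrX:37900280-37900325 for Rhox9. Rhox6 and Rhox9 were identical at 45 of the 46 bases, and Rhox5 and Rhox2h at 26.

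The promoter windows separated the subfamilies by motif. The Ets core CCGGAA was found in 8 of the 28 Rhox windows in the RefSeq table, those of Rhox5 and of all 7 Rhox2 copies with a window, and in 12.0% of all 32851 windows of 250 bases. These 8 genes were all above 0 in resistant cells, and the 20 windows without the motif belonged to genes listed at 0 in both libraries. Of the 8, Rhox2a, Rhox2b and Rhox2c rest on about 2 fragments each, fewer than the 3 used as a floor, and these may be shared between copies. The Rhox2 windows are copies of each other, 94.0% to 96.9% identical to that of Rhox2h, and so do not count as separate instances. The Sp1 motif GGGCGG was in all 7 Rhox4 windows and that of Rhox12, the E-box CACGTG in 5 Rhox4 windows, and the E2F motif TTCCCGC in 1 window, of the pseudogene Rhox11-ps2, each searched on both strands. The shares of all windows were 32.7% for GGGCGG, 6.02% for CACGTG and 3.82% for TTCCCGC. The Rhox5 window held 4 CpG dinucleotides at 42.8% GC and that of Rhox2h 5 at 49.2% GC, beside medians of 6 and 52.4% over all windows. A match says only that these letters are present. Rhox6 and Rhox9 have no window in the table.

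Position in the cluster was compared next. The protein-coding Rhox genes span 916 kb, and Rhox2h lies 131.6 kb before Rhox5. Between them are the pseudogenes Rhox7-ps2 and Rhox2-ps, and Rhox3h and Rhox6 flank the pair; all of these were listed at 0 in both libraries. The 6 rows of other genes inside the cluster were also listed at 0 in both. Outside it, none of the 20 nearest measured genes, 10 on each side, was at least 2-fold higher, beside 7.34% of the 368 measured X-linked genes, and 4 were at least 2-fold lower, beside 5.71%. Their median log2 ratio was -0.05, beside 0.10 over the measured X-linked genes and 0.02 over all measured genes.

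On the near side, Rnf113a1, a ubiquitin ligase and splicing factor gene 22.6 kb before the first protein-coding Rhox gene, had 1.298 FPKM in resistant and 2.12 FPKM in wild type cells. Ndufa1, a subunit of respiratory complex I, had 78.4 FPKM in resistant and 78.0 FPKM in wild type cells. Nkap had 5.77 FPKM in resistant and 8.25 FPKM in wild type cells, and Upf3b, a nonsense-mediated decay factor, had 13.7 FPKM in resistant and 11.8 FPKM in wild type cells. The small nucleolar RNA Snora69 was listed at 0 in resistant cells and had 5.52 FPKM in wild type cells. The 4 protein-coding genes among these were within 2-fold, and Snora69 was lower in resistant cells.

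On the far side, Zbtb33, which encodes the methyl-DNA-binding protein Kaiso and lies 59.8 kb after the last protein-coding Rhox gene, had 4.27 FPKM in resistant and 7.02 FPKM in wild type cells. Lamp2, a lysosomal membrane protein, had 47.0 FPKM in resistant and 25.03 FPKM in wild type cells. Cul4b, a ubiquitin ligase scaffold, had 24.8 FPKM in resistant and 19.15 FPKM in wild type cells. Mcts1 had 20.9 FPKM in resistant and 14.2 FPKM in wild type cells, and the pseudogene Gm4853 had 2.59 FPKM in resistant and 0.904 FPKM in wild type cells. None of these 5 reached 2-fold once 1 FPKM was added; without it, the 2 Gm4853 values are more than 2-fold apart.

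**Figure D2:**
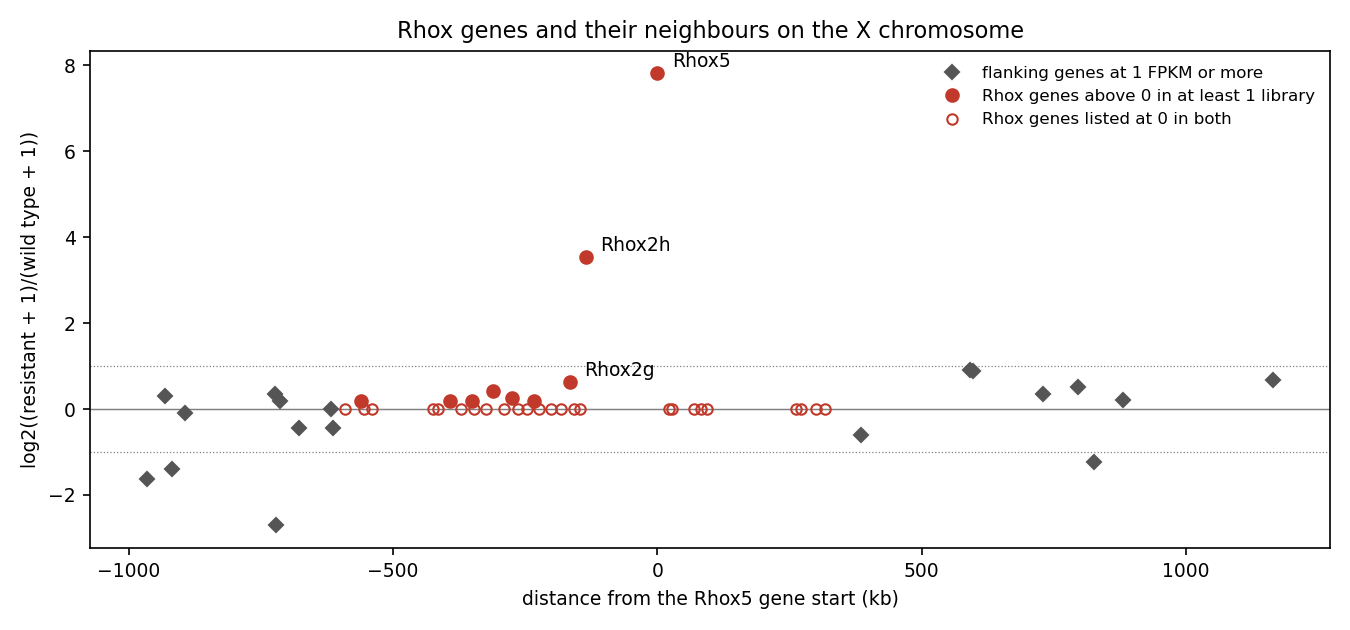
Log2 ratio, resistant over wild type with 1 FPKM added, against the distance in kb from the Rhox5 gene start, for protein-coding Rhox genes (circles, open where listed at 0 in both libraries) and the 18 nearest flanking genes (diamonds), with dotted lines at 2-fold. Rhox5 at 7.81 and Rhox2h at 3.54 stand alone above the upper line.

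Across the X chromosome, few genes had the same kind of pattern. Counted as under 0.5 FPKM in wild type and at least 5 FPKM in resistant cells, 4 of 929 X-linked protein-coding symbols (0.431%) were switched on, beside 25 of 21873 (0.114%) over all chromosomes and 70 of 55337 symbols of any kind (0.126%). Named after their values were seen, the 4 were Rhox5, Rhox2h, 3830403N18Rik, at 8.41 FPKM in resistant cells and listed at 0 in wild type cells, and Ppef1, a protein phosphatase gene, at 6.39 FPKM in resistant and 0.108 FPKM in wild type cells. Rhox5 and Rhox2h were chosen on this contrast and are part of the X-linked share, so nothing is read from its size. The opposite pattern was found for 16 protein-coding symbols over all chromosomes (0.0731%) and 55 symbols of any kind (0.0994%). On the X chromosome it was found for 3 protein-coding symbols (0.323%), namely Tceal9 and Bex3, of related families, and Maged2. Tceal9 had 0.201 FPKM in resistant and 42.9 FPKM in wild type cells. Bex3 had 0.142 FPKM in resistant and 38.1 FPKM in wild type cells, and Maged2 was listed at 0 in resistant cells and had 6.27 FPKM in wild type cells.

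Genes with similar levels were sought among those under 0.5 FPKM in wild type cells, leaving out predicted (Gm and Rik) names, pseudogenes and small RNAs. Of the genes left, the 5 nearest to Rhox5 and to Rhox2h lay on other chromosomes. The X-linked gene 3830403N18Rik was left out by its name and not ranked. At 8.41 FPKM in resistant cells and listed at 0 in wild type cells, it had levels close to those of the Rhox2h neighbours below. Within this limit, nearest to Rhox5 by Euclidean distance over log2(FPKM + 1) of the 2 libraries was Arhgdib, with 46.5 FPKM in resistant and 0.445 FPKM in wild type cells, at a distance of 2.76. The long non-coding RNA Lncenc1, known from embryonic stem cells, was next within the limit, with 24.7 FPKM in resistant and 0.0812 FPKM in wild type cells, and then Fuca2, Cdhr5 and Clca3b, at 18.3 to 18.7 FPKM in resistant cells. Rhox2h had much closer neighbours. Sox6, a transcription factor, had 9.60 FPKM in resistant and 0.0621 FPKM in wild type cells, at a distance of 0.164. Among the genes ranked, Zfp979, Clmn, Zfp985 and Eprn came next at 0.218 to 0.467. Genes above the limit, such as Atf3 at 53.1 FPKM in resistant and 2.29 FPKM in wild type cells, were not ranked. With 2 libraries this likeness is a description only.

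**Figure D3:**
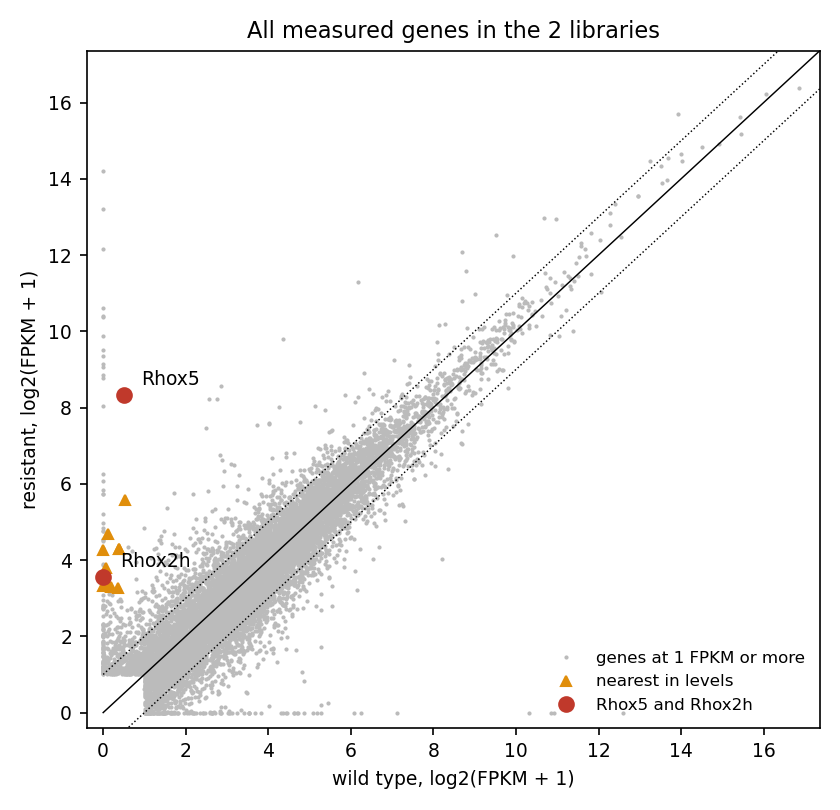
Level of each of the 12193 measured genes, wild type on the horizontal and resistant on the vertical axis, as log2(FPKM + 1), with the line of equal values and dotted lines at 2-fold. Orange triangles are the genes nearest to Rhox5 and to Rhox2h (red) among named genes under 0.5 FPKM in wild type cells. The closest of these to Rhox5 is at a distance of 2.76, while Rhox2h sits among its neighbours.

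Most factors reported to act on the Rhox5 promoters in mice were present in both groups. Of 24 such genes, 22 were measured, 0 were at least 2-fold higher, and 1 was lower, beside 7.9% and 8.37% of all measured genes, the Ets factor Elk4 with 15.2 FPKM in resistant and 32.3 FPKM in wild type cells. Their median log2 ratio was -0.17. Ets2 had 64.2 FPKM in resistant and 49.3 FPKM in wild type cells, and Ets1 had 15.6 FPKM in resistant and 15.1 FPKM in wild type cells. Gata4, a factor of gonad and gut, had 20.2 FPKM in resistant and 18.7 FPKM in wild type cells.

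Genes of a DNA methylation list, which also holds demethylating enzymes and methyl-DNA binding proteins, were lower more often than higher in resistant cells. Of 23 listed, 19 were measured, 0 were at least 2-fold higher, and 3 were at least 2-fold lower, beside 7.9% and 8.37% of all measured genes. At 4-fold, 0 were lower. The 3 were Uhrf1, which brings the maintenance methyltransferase to replicating DNA, Hells, a chromatin remodeler needed for methylation, and Mbd1, a methyl-DNA binding repressor. Uhrf1 had 38.8 FPKM in resistant and 104 FPKM in wild type cells, a log2 ratio of -1.40. Hells had 36.4 FPKM in resistant and 93.9 FPKM in wild type cells, a log2 ratio of -1.34. Mbd1 had 5.63 FPKM in resistant and 12.5 FPKM in wild type cells.

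The methyltransferases themselves differed less. Dnmt1, the maintenance enzyme, had 47.2 FPKM in resistant and 42.6 FPKM in wild type cells, and Dnmt3a, a de novo enzyme, had 10.2 FPKM in resistant and 9.87 FPKM in wild type cells. Dnmt3b was listed at 0 in resistant cells and had 0.173 FPKM in wild type cells. The demethylating Tet3 had 3.95 FPKM in resistant and 6.80 FPKM in wild type cells. The median log2 ratio of the list was -0.41, beside 0.02 over all measured genes, and 15 of its 19 measured genes were below 0. Since the list mixes genes that add, remove and bind methylation, its median has no single meaning for methylation. No methylation was measured, and whether these levels bear on the Rhox genes was not tested.

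Other silencing machinery was present in both groups. Of 14 genes of PRC1.6, a Polycomb complex that represses germline genes, all were measured, 0 were at least 2-fold higher and 1 was lower, its DNA-binding partner Max, with 15.1 FPKM in resistant and 32.8 FPKM in wild type cells, and the list's median log2 ratio was -0.32. Of 25 genes of histone H3 lysine 9 methylation and heterochromatin, all were measured, 0 were higher and 4 were lower, with a median of -0.26, beside 7.9% higher and 8.37% lower over all measured genes. These were the heterochromatin protein gene Cbx5 with 50.9 FPKM in resistant and 129 FPKM in wild type cells, Zfp809, Tasor and Zfp644. Of 13 measured PRC2 genes, 0 were higher and 1, Mtf2, was lower, with 4.60 FPKM in resistant and 10.2 FPKM in wild type cells, and the median was -0.12.

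Most other genes known to be silenced by promoter methylation outside the germline were listed at 0 in both libraries. Of 54 such germline genes, 38 were listed at 0 in both libraries, among them Ddx4, Dazl and Dppa3, markers of germ cells. In resistant cells alone 6 were above 0, and in wild type cells alone 2, beside 5.2% and 3.86% of all protein-coding symbols. The 4 that were measured, Syce2, Ythdc2, Hsf2bp and Tdrkh, were all within 2-fold once 1 FPKM was added, with a median log2 ratio of -0.07. Syce2, Tdrkh at 10.5 FPKM and Ythdc2 at 5.00 FPKM were already expressed in wild type cells, so they could not show a switch from off to on. Hsf2bp, a meiotic recombination gene, had 1.46 FPKM in resistant and 0.325 FPKM in wild type cells and was past 2-fold with 0.1 FPKM added. Syce2, of the synaptonemal complex, had 6.19 FPKM in resistant and 11.7 FPKM in wild type cells. Among 41 X-linked cancer-testis genes in the table, 0 reached 1 FPKM and 34 were listed at 0 in both, the highest being Xlr3a at 0.514 FPKM in resistant cells and listed at 0 in wild type cells. Of the 41, 6 were above 0 in resistant cells alone and 1 in wild type cells alone, beside 5.2% and 3.86% of all protein-coding symbols. Fragments were not worked out for these genes. Some, such as Magea8 at 0.0290 FPKM in resistant cells, may lie under the floor of 3 fragments, so nothing is read from this count. Of 9 measured imprinted genes, 1 was higher and 3 were lower, Peg3, Impact and Mest, with a median of 0.06, beside 7.9% higher and 8.37% lower over all measured genes; 0 were higher and 0 lower with 5 FPKM added. Peg3, a paternally expressed zinc finger gene, was listed at 0 in resistant cells and had 4.52 FPKM in wild type cells.

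**Figure D4:**
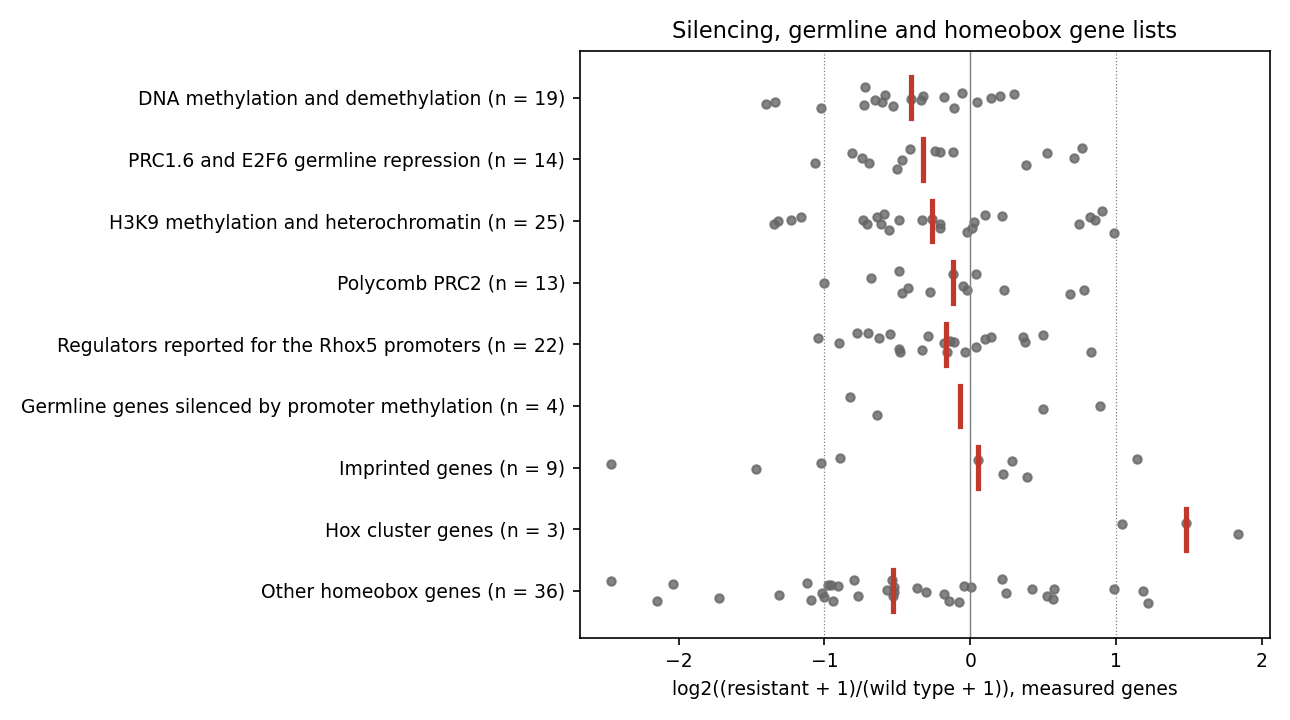
Log2 ratios, resistant over wild type with 1 FPKM added, of the measured genes of 9 lists (grey points), with the median of each list in red and dotted lines at 2-fold. The DNA methylation list has its median at -0.41 and the list of other homeobox genes at -0.53, while all measured genes have theirs at 0.02. The Hox cluster genes shown reached 1 FPKM in the resistant library alone, so their place past 2-fold was fixed in advance.

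Markers of the tissues where Rhox genes are known were checked, since RNA of a cell mixture cannot tell more expressing cells from more RNA per cell. Of 14 germ cell markers, 0 reached 1 FPKM, and they summed to 0.663 FPKM in resistant and 1.07 FPKM in wild type cells. Of 17 Sertoli markers, 6 were measured, 0 were higher and 3 were lower, beside 7.9% and 8.37% of all measured genes. The 3 were Trf, Sox9 and Clu, all of which other cell types also express. The Sertoli list summed to 1231 FPKM in resistant and 2895 FPKM in wild type cells. The other measured Sertoli markers were within 2-fold. Gata4 had 20.2 FPKM in resistant and 18.7 FPKM in wild type cells, Dhh had 8.66 FPKM in resistant and 8.48 FPKM in wild type cells, and Ctsl had 143.5 FPKM in resistant and 87.4 FPKM in wild type cells. Amh, also of the Sertoli list, was listed at 0 in resistant cells and at 0.0276 FPKM in wild type cells. Of 8 granulosa markers, 1 was measured, Inhba at 1.23 FPKM in resistant and 0.525 FPKM in wild type cells.

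The placental and stem cell lists held few measured genes. Of 29 trophoblast genes, 6 were measured and 2 were higher, beside 7.9% of all measured genes, the homeobox gene Cdx2 with 7.73 FPKM in resistant and 2.84 FPKM in wild type cells, and the growth-restraining gene Phlda2 with 23.0 FPKM in resistant and 9.89 FPKM in wild type cells. Neither was past 2-fold with 5 FPKM added. The list summed to 660 FPKM in resistant and 682 FPKM in wild type cells, mostly Plac8. Prl2c2 followed, with 144 FPKM in resistant and 97.5 FPKM in wild type cells. Eomes had 3.13 FPKM in resistant and 5.24 FPKM in wild type cells, and Gata3 had 2.17 FPKM in resistant and 0.614 FPKM in wild type cells. Of the 29, 19 were listed at 0 in both, among them Elf5, Hand1, Gcm1 and Tpbpa. Of 24 pluripotency genes in the table, 5 were measured, with Lncenc1 higher and Klf4 lower, at 20.1 FPKM in resistant and 53.4 FPKM in wild type cells. Over all measured genes, 7.9% were higher and 8.37% lower. The defining genes Pou5f1 and Nanog were listed at 0 in both.

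Of 12 epithelial and ductal markers, 9 were measured, 1 was at least 2-fold higher and 1 lower, beside 7.9% and 8.37% of all measured genes. Krt7 was higher, with 32.6 FPKM in resistant and 7.56 FPKM in wild type cells, and Sox9 was lower, with 1.88 FPKM in resistant and 8.19 FPKM in wild type cells. Krt8, Krt18 and Krt19, keratins of ductal epithelium, lay between 1722 and 1864 FPKM in resistant cells and between 1123 and 1332 FPKM in wild type cells, and Cdh1 had 164 FPKM in resistant and 206 FPKM in wild type cells. Epcam, Cldn4 and Cldn7 were near 0 in both, at 0.211 FPKM or less. Fibroblast markers summed to 0.763 FPKM in resistant and 0.452 FPKM in wild type cells, with 0 of 12 measured. Leukocyte markers summed to 7.64 FPKM in resistant and 1.75 FPKM in wild type cells, most of it Cd68, while the pan-leukocyte gene Ptprc was at 0.232 FPKM in resistant cells and listed at 0 in wild type cells.

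Genes reported to respond to RHOX5 in mouse Sertoli cells were examined last. Of 7, 3 were measured and 1 was at least 2-fold higher, beside 7.9% of all measured genes, Ppargc1a, a coactivator of mitochondrial genes, with 1.69 FPKM in resistant and 0.116 FPKM in wild type cells. None was past 2-fold with 5 FPKM added or with a filter of 5 FPKM. Pparg, a nuclear receptor, had 132 FPKM in resistant and 68.1 FPKM in wild type cells, just under 2-fold. Adipor2, an adiponectin receptor, had 83.9 FPKM in resistant and 56.0 FPKM in wild type cells. Unc5c, a netrin receptor gene that RHOX5 represses there, had 0.295 FPKM in resistant and 0.215 FPKM in wild type cells, and Ins2 was listed at 0 in both. The median of the 3 measured genes was 0.95, and no relation to Rhox5 was tested.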

How the data were processed

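The deposited table names no unit for its 2 expression columns; they behave as FPKM computed by the authors. HISAT2, StringTie and GRCm38 are named, without roles, in the submitters' processing notes. Per the file headers, each gene also has the authors' log2 fold change, test score, p-value and q-value, all from 1 library per side. Rows were summed by symbol after 13 rows marked by the authors as failed or too deep were dropped, none of them a Rhox gene. A symbol that reached 1 FPKM in either library counted as measured (12193 of 55337), and 1 FPKM was added before log2 was taken. Their median log2 ratio was 0.02. GENCODE M21 (GRCm38) placed 55141 gene identifiers.

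Fragments were recovered as FPKM times the longest transcript's length less 160 bases, divided by the value of 1 fragment, 0.0432 FPKM at 1 kb in the resistant and 0.0419 FPKM in the wild type library. Within 0.1 of a whole number, up to 5.5 fragments, lay 95.1% of 634 low values in the resistant library and 95.7% of 751 in the wild type library. The method was tested on simulated data. Of 15 genes that every cell uses, 0 were listed at 0 in either library. Rhox5 and Rhox2h have 2 annotated transcripts each, so their fragments are approximate.

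Members and lists were chosen with earlier results of these data known. Genes named were the members, Rhox genes counted, the 5 nearest in level to Rhox5 and to Rhox2h among named genes under 0.5 FPKM in wild type cells, up to 4 genes with the largest ratio per list among those past 2-fold, DNA methylation genes and 5 flanking genes per side; others, such as Gata4, Ets1, Ets2, Pparg and cell markers, were named for their role with their values known. Alternatives were other added values, scalings, filters and folds. Promoter sequences are from RefSeq (GRCm38.p6), exons and coding bases from GENCODE, with alignments by Biopython 1.88. Python 3.11.15 with pandas 2.3.3, numpy 2.4.6 and scipy 1.17.1 were used.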

Additional observations from a re-analysis of the deposited data

How the results depend on the processing

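Rhox5 and Rhox2h were at least 2-fold higher under every alternative run, and the count of Rhox genes past 2-fold stayed at 2. Both were chosen on this contrast and were at or close to 0 in wild type cells, so this adds no support. The log2 ratio of Rhox5 was 9.25 with 0.1 FPKM added and 5.90 with 5 FPKM added, and that of Rhox2h 6.75 and 1.65. For DNA methylation genes the median was -0.54 with 0.1 FPKM added, -0.29 with 5 FPKM added and -0.53 with a filter of 5 FPKM, and 0 genes were lower at 4-fold. For Hox cluster genes the median was 4.24 with 0.1 FPKM added, 0.44 with 5 FPKM added, 1.602 after upper quartile scaling and 0 with no filter. Except with no filter, the genes behind these medians were listed at 0 in wild type cells, so nothing is read from them. For this list 0 genes were higher with 5 FPKM added, with a filter of 5 FPKM or at 4-fold, and that filter left no Hox gene for a median. Counts past 2-fold in the other lists also moved. With 0.1 FPKM added, 14 other homeobox genes were lower in place of 9, and 2 genes of H3K9 methylation, 1 germline gene and 1 Rhox5 promoter regulator were higher in place of 0. With 5 FPKM added, 3 other homeobox genes and 1 H3K9 gene were lower, and 0 PRC1.6, PRC2, regulator or imprinted genes were lower and 0 trophoblast, imprinted or RHOX5-responsive genes higher. With a filter of 5 FPKM, 5 other homeobox genes and 1 imprinted gene were lower. At 4-fold, 3 other homeobox genes, 1 imprinted gene and 1 Sertoli marker were lower, and 0 genes of the H3K9, PRC1.6, PRC2 and regulator lists. The median of imprinted genes, 0.06 as reported, was -0.47 after upper quartile scaling. The median of the flanking genes was 0.10 with 5 genes and 0.12 with 20 genes on each side, against -0.05 with 10. Symbols switched on, 70 as counted above over all symbols, numbered 46 when listed at 0 in wild type cells, 341 at 1 FPKM or more and 39 at 10 FPKM or more in resistant cells, and 25 when protein-coding. Symbols switched off, 55 in all, numbered 379 at 1 FPKM or more, 29 at 10 FPKM or more and 16 when protein-coding. The log2 ratios of Rhox5 and Rhox2h could not change sign under these alternatives, while the medians of imprinted genes and of flanking genes did, as given above. The cause of these shifts was not tested. No paired analysis was possible because each group has 1 library. With 1 library a group, no alternative speaks to variation between cultures, and below about 3 fragments, 0.0573 to 0.215 FPKM for the other protein-coding Rhox genes outside Rhox2 in resistant cells, expression was not detectable.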

Other observations

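Homeobox genes outside the Rhox cluster were counted the same way. Of 39 Hox cluster genes, 14 were above 0 in resistant cells, against 3 in wild type cells, with 13 above 0 in resistant cells alone and 2 in wild type cells alone, beside 5.2% and 3.86% of all protein-coding symbols. The levels were low, and fragments were not worked out for these genes, so some may lie under the floor of 3 fragments. Hoxa10 had 2.58 FPKM, Hoxb6 1.80 FPKM and Hoxb8 1.05 FPKM in resistant cells, all 3 listed at 0 in wild type cells. These were the 3 Hox genes that reached 1 FPKM, with a median log2 ratio of 1.48. A gene listed at 0 in wild type cells that reaches 1 FPKM must have a log2 ratio of at least 1. Nothing is therefore read from this median or from all 3 being higher. A neighbouring block of the Hoxb cluster, Hoxb3 to Hoxb9, was above 0 at each of its 7 genes in resistant cells and listed at 0 in wild type cells, between 0.0179 and 1.80 FPKM, a pattern picked out after the values were seen. The lowest of them, Hoxb4 at 0.0179 FPKM and Hoxb9 at 0.0714 FPKM in resistant cells, may rest on few fragments.

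Other homeobox genes were lower more often than higher. Of 36 measured among 168 in the table, 9 were at least 2-fold lower and 2 higher, with a median log2 ratio of -0.53, beside 8.37% lower and 7.9% higher over all measured genes. Hhex, a factor of foregut and pancreas development, had 2.94 FPKM in resistant and 20.7 FPKM in wild type cells. Zhx1 had 2.13 FPKM in resistant and 12.9 FPKM in wild type cells, and Adnp and Homez were also lower. Tgif1, a corepressor of TGF-beta signalling, had 66.9 FPKM in resistant and 28.1 FPKM in wild type cells.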
